A study of Arabidopsis thaliana with 6 samples.

Results

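ATG8 proteins are small ubiquitin-like proteins that mark the membranes of autophagosomes, the vesicles that carry cytoplasm to the vacuole for breakdown. Their transcripts were measured in Arabidopsis rosettes through the 7 probe sets that carry 1 gene name beginning with ATG8, out of 13513 probe sets with 1 gene name and 22810 in all. The 7 genes are ATG8B, ATG8C, ATG8D, ATG8E, ATG8F, ATG8G and ATG8H. A pair of relatives, APG8A and APG8H, are annotated under other symbols (their synonyms are ATG8A and ATG8I) and are described beside the 7 as family members outside that choice.

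The tested plants were sid2.2 mutants, which carry a mutation in ICS1, the isochorismate synthase that makes a precursor of the defence hormone salicylic acid. They were set against the wild type Col-0. Both genotypes received low sulfate (0.016 mM) and were harvested at day 60 after growth under short days, with light (160 µmol per m2 and s) for 8 h and darkness for 16 h. The study ran 3 cultures, separated by several months; every culture gave 1 RNA pool of more than 6 rosettes per genotype and 1 array per pool, so n = 3 per genotype and 6 arrays in all. Replicate numbers are culture numbers. A normal-sulfate group is not part of the design, so the effect of sulfate itself was not compared. ICS1 itself was not analysed here, so the mutated gene gave no check of the genotype labels.

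During autophagy, newly made ATG8 is trimmed by the protease ATG4 to expose a glycine at its end. ATG7 and ATG3, with the ATG12-ATG5 conjugate and ATG16, then attach this glycine to phosphatidylethanolamine in the growing membrane, where ATG8 recruits cargo receptors. In leaves the pathway recycles nutrients during starvation, darkness and senescence, and Arabidopsis holds a family of ATG8 genes. In Arabidopsis the family falls into an a-to-d branch, an e-to-g branch and an h-and-i branch, and the last of these encodes proteins whose glycine is already exposed. The arrays measure transcripts, not the conjugated protein or the flux of autophagy.

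On the first principal component the arrays did not separate by genotype. This component held 55.5% of the variance of the 13647 probe sets tested. On it sid2.2 replicate 2 and Col-0 replicate 3 had the highest scores (54.3 and 29.8). Col-0 replicates 1 and 2 lay at the other end (-41.3 and -51.4), and sid2.2 replicates 1 and 3 between (11.9 and -3.37). Correlations between arrays were otherwise high, with a mean of 0.913 to 0.947 for each array against the others. RNA quality was followed by ratios of control probe sets. The first actin ratio, the signal near the 3' end of the transcript over that near its 5' end, which was 6.73 ± 1.51 in sid2.2 and 4.86 ± 0.05 in Col-0 (SD, n = 3 each; two-sided exact permutation p = 0.1, the minimum for groups of 3). The first GAPDH ratio was likewise higher in every sid2.2 pool, at 3.35 ± 0.48 in sid2.2 and 2.63 ± 0.26 in Col-0 (exact permutation p = 0.1). A further actin pair gave 25.9 ± 10.2 in sid2.2 and 19.8 ± 4.82 in Col-0 (exact permutation p = 0.5), and a further GAPDH pair 1.23 ± 0.06 in sid2.2 and 1.17 ± 0.11 in Col-0 (exact permutation p = 0.6). Leaf genes were strongly present: Rubisco activase RCA had signals of 17358, 15030 and 24339 in sid2.2 and 15691, 22785 and 11743 in Col-0. Of the 5 root markers listed 2 were measured, PYK10 and EXPA7, and they stayed at or below 232. That PYK10 signal, on sid2.2 replicate 1, was above the median signal of its array (162). The 6 flower and seed markers were not analysed here.

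All 7 ATG8 transcripts were readily detected, all 7 were on average higher in sid2.2 than in Col-0, and none of these differences exceeded the spread between arrays. On every array each ATG8 signal was at least 10.8 times the background level, taken as the 95th percentile of the control probe sets for bacterial genes. The log2 differences (sid2.2 minus Col-0, limma) ran from 0.10 for ATG8C to 0.79 for ATG8H, with a median of 0.44, against a median of -0.0051 over the 13647 probe sets tested, 49.4% of which lay above 0. None of the 7 passed limma's test, for which the Benjamini-Hochberg adjusted p had to be under 0.05, and none had an unadjusted p under that value. Over the whole array limma called 3 probe sets (0.022%), 2 higher and 1 lower, and 0 with culture as a block. Unadjusted p fell under 0.05 for 7.4% of probe sets. The genotypes overlapped for all 7 ATG8 genes, where 12% of probe sets showed no overlap.

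**Figure D1:**
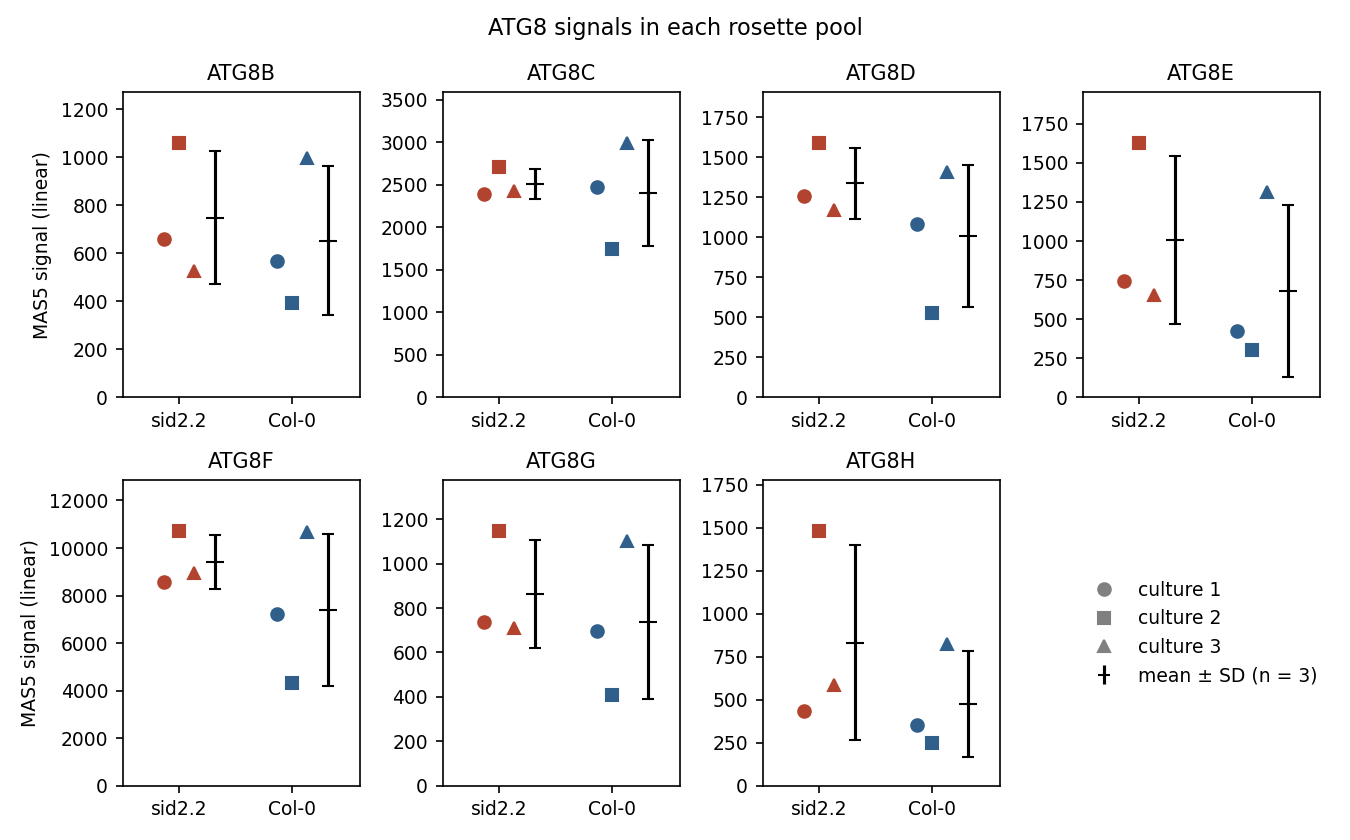
MAS5 signal on a linear scale for each ATG8 gene, with sid2.2 arrays left and Col-0 arrays right; the symbol shows the culture and the bar is the mean ± SD (n = 3). The sid2.2 array of culture 2 and the Col-0 array of culture 3 are the highest pair in every panel, and the Col-0 array of culture 2 is the lowest, at 246 for ATG8H and 4306 for ATG8F.

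In the h-and-i branch, ATG8H (AT3G06420) showed the largest mean difference and the widest range. Its signals were 431, 1478 and 583 in sid2.2 (replicates 1, 2 and 3; mean 831 ± 566) and 355, 246 and 822 in Col-0 (474 ± 306, SD, n = 3 each). Thus 1 sid2.2 pool and 1 Col-0 pool stood above the other 4, and the lower sid2.2 signals lay below the highest Col-0 signal. The fitted difference was 0.79 (SE 0.54, 95% interval -0.44 to 2.02, limma adjusted p = 0.788), a 1.73-fold ratio whose interval ran from 0.738 to 4.05. The highest ATG8H signal was 6.00 times the lowest.

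Its branch partner APG8H (AT3G15580) varied less. APG8H had signals of 6080, 8619 and 7015 in sid2.2, and 6880, 4100 and 8756 in Col-0. The difference was 0.19 (SE 0.29, limma adjusted p = 0.896), and the range over the 6 arrays was 2.14-fold, with Col-0 replicate 3 highest and Col-0 replicate 2 lowest.

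In the e-to-g branch, ATG8E (AT2G45170) varied nearly as much as ATG8H. ATG8E had signals of 743, 1629 and 657 in sid2.2 (mean 1010 ± 538), against 422, 302 and 1314 in Col-0 (679 ± 553, SD, n = 3 each). Col-0 replicates 1 and 2 were below all sid2.2 arrays, whereas Col-0 replicate 3 was above 2 of the 3. The difference was 0.75 (SE 0.55, 95% interval -0.50 to 2.004, limma adjusted p = 0.799). ATG8F (AT4G16520) had 8583, 10701 and 8959 in sid2.2 (9414 ± 1130), against 7231, 4306 and 10692 in Col-0 (7409 ± 3197). Its sid2.2 arrays lay close together and its Col-0 arrays far apart. The difference was 0.44 (SE 0.31, 95% interval -0.26 to 1.13, limma adjusted p = 0.791). ATG8G (AT3G60640) had 737, 1146 and 712 in sid2.2 (865 ± 243), against 697, 411 and 1103 in Col-0 (737 ± 348). For ATG8G the arrays of culture 1 were almost level, and the difference was 0.31 (SE 0.37, 95% interval -0.53 to 1.15, limma adjusted p = 0.865).

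In the a-to-d branch, ATG8D (AT2G05630) had signals of 1256, 1589 and 1168 in sid2.2 (mean 1338 ± 222), against 1084, 527 and 1405 in Col-0 (1005 ± 445, SD, n = 3 each). Col-0 replicate 2 stood apart as the lowest array, and Col-0 replicate 3 again exceeded sid2.2 replicates 1 and 3. The ATG8D difference was 0.51 (SE 0.35, 95% interval -0.29 to 1.32, limma adjusted p = 0.788). ATG8B (AT4G04620) had 661, 1060 and 526 in sid2.2 (749 ± 278), against 569, 391 and 999 in Col-0 (653 ± 312). Its Col-0 replicate 1 lay between sid2.2 replicates 3 and 1, so the genotypes interleaved. The difference was 0.24 (SE 0.39, 95% interval -0.63 to 1.12, limma adjusted p = 0.899).

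ATG8C (AT1G62040) was the steadiest of the 7. Its signals were 2392, 2708 and 2420 in sid2.2 (2507 ± 175), against 2470, 1740 and 2990 in Col-0 (2400 ± 628, SD, n = 3 each). The highest array was Col-0 replicate 3, the only case among the 7 in which sid2.2 replicate 2 was not highest. The difference was 0.10 (SE 0.23, 95% interval -0.44 to 0.63, limma adjusted p = 0.936). APG8A (AT4G21980), of the same branch, had 1256, 1912 and 1165 in sid2.2, against 1130, 971 and 1330 in Col-0, and differed by 0.31 (SE 0.25, limma adjusted p = 0.817).

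Signals of different probe sets are not on a common scale, since each set binds its target with its own efficiency. The signals above therefore give no order of transcript abundance between the paralogs, and only ranges and differences within a gene are set side by side.

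The paralogs differed in how widely they varied among pools of the same genotype. The SD of log2 signal within a genotype, pooled over both, was 0.93 for ATG8E and 0.91 for ATG8H, above 98% and 97.6% of the 500 probe sets of most similar mean. It was 0.60 for ATG8B, 0.57 for ATG8G, 0.54 for ATG8D and 0.48 for ATG8F, each above 85.8% to 88.2% of such probe sets. For ATG8C it was 0.29, above 52.4%, and the median over all tested probe sets was 0.33. For ATG8E the log2 SD was 0.71 within sid2.2 and 1.11 within Col-0. For ATG8D it was 0.23 within sid2.2 and 0.73 within Col-0, and for ATG8F 0.17 within sid2.2 and 0.66 within Col-0. Col-0 was the more variable genotype for 6 of the 7 genes, ATG8H being the exception (0.93 in sid2.2 against 0.89 in Col-0). The same count was not made over all tested probe sets. Scores on the first principal component of the whole array also ran wider in Col-0 (-51.4 to 29.8) than in sid2.2 (-3.37 to 54.3). The difference in spread between genotypes was not tested.

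Within the cultures the genotype difference turned direction. In culture 2 all 7 ATG8 genes were higher in sid2.2, with log2 differences of 0.64 for ATG8C to 2.59 for ATG8H and a median of 1.48. In culture 1 the median was 0.22 and 6 of 7 were above 0, ATG8C being at -0.05. In culture 3 all 7 were lower in sid2.2, from -0.26 for ATG8F to -0.999 for ATG8E, with a median of -0.50. Over all tested probe sets the medians were 0.11, 0.0018 and -0.066 in cultures 1, 2 and 3. Differences were above 0 for 57.9%, 50.1% and 45% of probe sets in the 3 cultures. A difference above 0 in culture 2 together with one below 0 in culture 3 was shown by 34.5% of probe sets. None of the 7 had the same sign in all 3 cultures, against 21.5% of probe sets. With 1 pair of arrays per culture these within-culture values have no error of their own. Culture as a term beside genotype was called for 0 probe sets (limma F test, smallest adjusted p = 0.9999; 29 with an unadjusted p under 0.05).

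**Figure D2:**
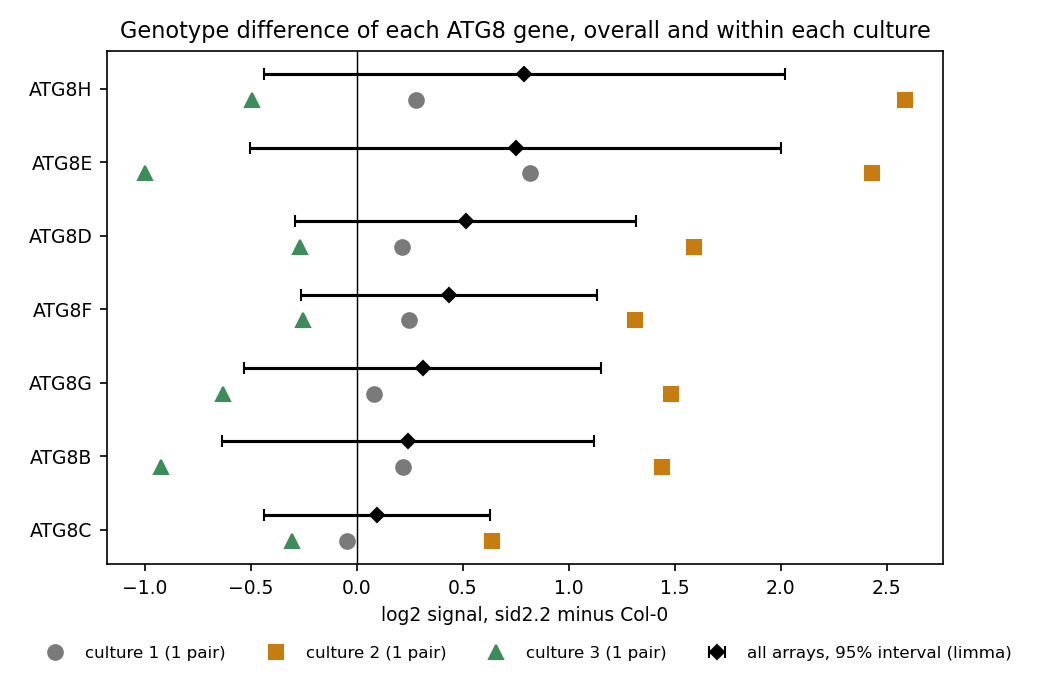
Log2 signal in sid2.2 minus Col-0 for each ATG8 gene. Black diamonds with 95% intervals are the limma fit over all arrays, and coloured symbols are single pairs of arrays within a culture. Every interval includes 0. Culture 2 lies to the right of 0 for all 7 genes, up to 2.59, and culture 3 to the left, down to -0.999.

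The largest single pair was that of culture 2. ATG8H stood 6.00-fold higher in sid2.2 there (1478 in sid2.2 against 246 in Col-0), ATG8E 5.40-fold (1629 against 302) and ATG8D 3.02-fold (1589 against 527). ATG8G, ATG8B and ATG8F followed at 2.79-fold, 2.71-fold and 2.49-fold, and ATG8C at 1.56-fold. For 6 of the 7 genes this pair was also the highest and the lowest of all 6 arrays. In culture 3 ATG8E had 657 in sid2.2 against 1314 in Col-0, and the ratio of sid2.2 to Col-0 was 0.526 for ATG8B and 0.838 for ATG8F.

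The order of the arrays was nearly common to the family. Col-0 replicate 2 was the lowest array for all 7 genes, as for 19.1% of all tested probe sets. Sid2.2 replicate 2 and Col-0 replicate 3 were the highest pair for all 7, as for 18.2% of probe sets. Sid2.2 replicates 1 and 3 and Col-0 replicate 1 lay between these ends for each gene. Sid2.2 replicate 2 lay above the mean of the other sid2.2 arrays by 1.56 for ATG8H, 1.22 for ATG8E and 0.17 for ATG8C. Col-0 replicate 3 lay above the mean of the other Col-0 arrays by 1.88 for ATG8E, 1.47 for ATG8H and 0.53 for ATG8C. In bulk rosettes, more cells of a kind and more transcript per cell cannot be told apart.

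Over the 6 arrays the log2 signals of the 7 genes correlated with each other at a Pearson r of 0.78 (ATG8C with ATG8H) to 0.98 (ATG8D with ATG8F), with a median of 0.91 over 21 pairs. After the genotype means were removed the median was 0.92. The arrays share their culture and scaling, and these values are descriptions. Each gene correlated with the mean of the 7 at 0.92 (ATG8C) to 0.99 (ATG8G), in which it takes part. The relatives APG8A and APG8H, which do not, had r of 0.89 and 0.94. The ATG8 mean also followed the first principal component of the whole array (r = 0.94, n = 6 arrays).

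**Figure D3:**
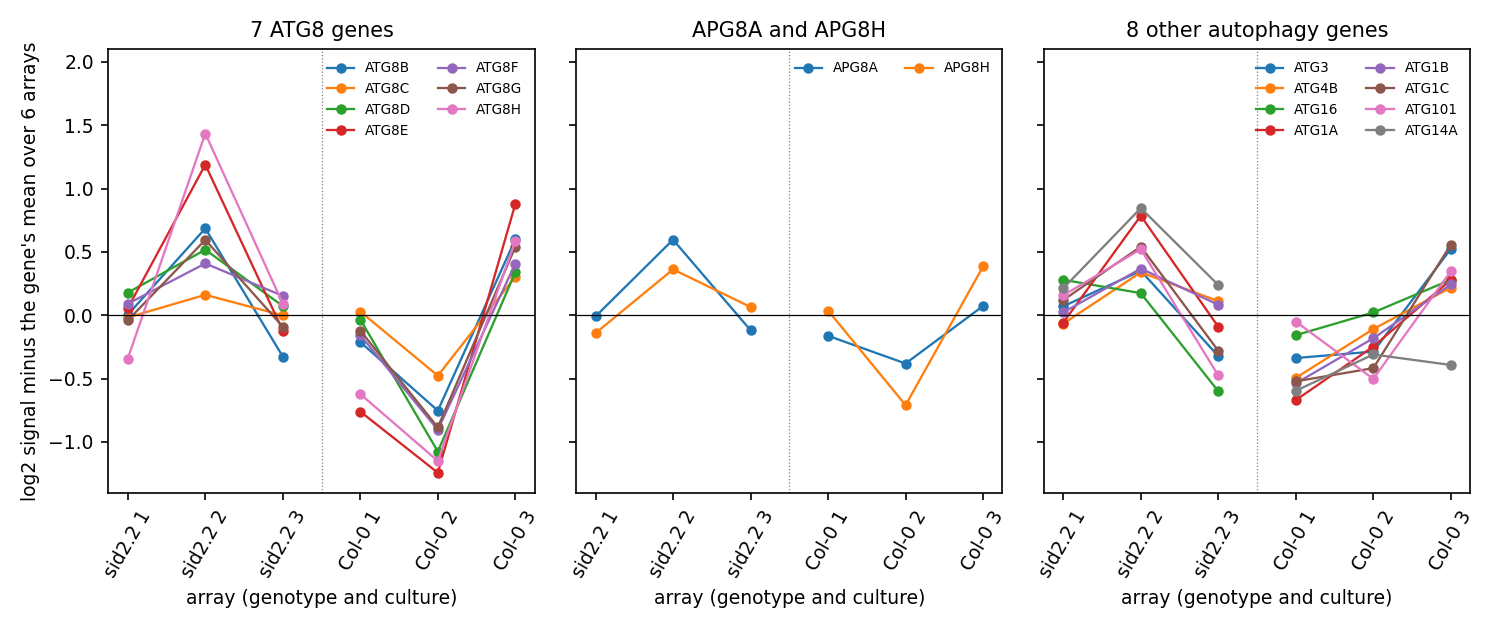
Log2 signal of each gene minus its mean over the 6 arrays, for the 7 ATG8 genes (left), APG8A and APG8H (middle) and 8 other autophagy genes (right). Sid2.2 arrays stand left of the dotted line and Col-0 arrays right, and lines only link the arrays of a gene. The ATG8 genes peak on sid2.2 replicate 2 and Col-0 replicate 3 and dip on Col-0 replicate 2, with ATG8E and ATG8H spanning the widest range.

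Many other transcripts shared this pattern. Of the 13647 tested probe sets, 668 (4.89%) had an r above 0.9 with the ATG8 mean and 648 (4.75%) an r below -0.9. The named genes most alike were AT5G59400 (r = 0.997), PRA1.A1, a prenylated Rab acceptor (0.997), AT1G21780 (0.996), AT1G53030 (0.995) and AT5G37740 (0.994). They were followed by AT3G28940, AT5G57910, AT4G21580, AT3G56820 and AT1G14340 (0.992 to 0.994). AT5G59400 had signals of 1085, 1447 and 1060 in sid2.2, and 995, 795 and 1317 in Col-0, with the same pools high and low as for the ATG8 genes. AT1G78450 (r = -0.995), AT3G56370 (-0.992), AT2G21860 (-0.992), AT5G22390 (-0.989) and AT2G24060 (-0.989) ran most nearly opposite. None of these 15 genes was called between genotypes (limma adjusted p = 0.774 to 0.915). They were chosen by their r with the ATG8 mean, in which the genotypes overlapped. The shared order of pools and the lack of calls therefore largely follow from that choice.

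The 4 measured mesophyll markers each had a negative r with the ATG8 mean across the same pools. The summed signal of the 4 measured mesophyll markers (of 8 on the list) was 51781, 41149 and 67114 in sid2.2, and 50335, 69150 and 37634 in Col-0. It was thus low on sid2.2 replicate 2 and Col-0 replicate 3, where the ATG8 genes were highest, and highest on Col-0 replicate 2, where they were lowest. This sum weighs RCA and LHCB4.1 most, and both were themselves highest on sid2.2 replicate 3 (24339 and 24346). PRK and SBPASE were highest on Col-0 replicate 2. SBPASE, a Calvin cycle phosphatase, had r = -0.98 with the ATG8 mean, PRK r = -0.92, RCA r = -0.68 and LHCB4.1 r = -0.57 (n = 6 arrays). The 3 measured senescence markers, of 6 listed, had a summed signal of 921, 1264 and 940 in sid2.2, and 569, 579 and 638 in Col-0. This sum weighs WRKY53 most, whose Col-0 signals of 424, 390 and 352 fell over the replicates while the sum rose. Each of the 3 markers had higher signals in sid2.2 with no overlap and in every culture. Over all tested probe sets 12% had no overlap and 21.5% had the same sign in every culture, in either direction. None of the 3 was called: SAG29 differed by 1.56 (SE 0.32, limma adjusted p = 0.348), WRKY6 by 1.07 (SE 0.37, adjusted p = 0.581) and WRKY53 by 0.39 (SE 0.22, adjusted p = 0.750). WRKY6 had r = 0.82 with the ATG8 mean, SAG29 0.60 and WRKY53 0.39. The part of leaf age or state in the ATG8 values was not tested. The first actin and GAPDH ratios were higher in all 3 sid2.2 pools than in any Col-0 pool, and the part of RNA quality in the genotype difference was not tested.

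None of the other autophagy genes tested was called by limma. Of 33 listed core genes 9 had a single-gene probe set and 8 were tested. Differences were above 0 for 7 of the 8, with a median of 0.26, and for 49.4% of all tested probe sets. An unadjusted p under 0.05 was found for 7.4% of all tested probe sets and for 1 of the 8 core genes. Within cultures 1, 2 and 3 their median differences were 0.50, 0.80 and -0.60. In ATG8 conjugation, the conjugating enzyme ATG3 differed by 0.067 (SE 0.29), the protease gene ATG4B (AT3G59950) by 0.26 (SE 0.26) and ATG16 (AT5G50230) by -0.097 (SE 0.29), with limma adjusted p values of 0.965, 0.842 and 0.947. ATG3 had signals of 1413, 1716 and 1076 in sid2.2, and 1065, 1103 and 1934 in Col-0, again high in sid2.2 replicate 2 and Col-0 replicate 3. Its r with the ATG8 mean was 0.81, and that of ATG16 was 0.31.

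In the initiation complex, which starts autophagosome formation, ATG1A (AT3G61960) differed by 0.42 (SE 0.33), ATG1B (AT3G53930) by 0.32 (SE 0.29), ATG1C (AT2G37840) by 0.25 (SE 0.35) and ATG101 (AT5G66930) by 0.14 (SE 0.32). Their limma adjusted p values were 0.811, 0.836, 0.885 and 0.933. ATG1C (r = 0.87) and ATG101 (r = 0.84) were nearest to the ATG8 mean. ATG14A (AT1G77890), of the phosphatidylinositol 3-kinase complex, had another pattern. Its signals were 156, 242 and 159 in sid2.2, and 89.0, 109 and 103 in Col-0, with no overlap, and it was higher in all 3 cultures (0.81, 1.16 and 0.63). A lack of overlap was shown by 1 of the 8 core genes tested and by 12% of all tested probe sets, in either direction. The same sign in every culture was shown by 21.5% of all tested probe sets. The ATG14A difference was 0.87 (SE 0.28, unadjusted p = 0.0133, limma adjusted p = 0.545).

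Of the lists around the pathway, the 12 receptor and adaptor genes, the 10 membrane delivery genes and the 8 dark and carbon starvation genes were not analysed here. In the TOR branch, which restrains autophagy, RAPTOR1 differed by 0.53 (SE 0.30, limma adjusted p = 0.750). Like ATG14A, RAPTOR1 showed no overlap and was higher in sid2.2 in every culture (1.07, 0.36 and 0.16). Array-wide, 12% of tested probe sets had no overlap and 21.5% had the same sign in every culture, in either direction. Of the vacuolar proteases, which act where autophagosomes end, GAMMA-VPE differed by 0.57 (SE 0.37, limma adjusted p = 0.775) and tracked the ATG8 mean (r = 0.96). GAMMA-VPE had signals of 17551, 21582 and 16413 in sid2.2, and 12813, 6796 and 21830 in Col-0. APA1 differed by 0.44 (SE 0.22, adjusted p = 0.737) and BETA-VPE by -0.069 (SE 0.27, adjusted p = 0.958). With the ATG8 mean APA1 had r = 0.83, whereas BETA-VPE ran the other way (r = -0.58).

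The size and the direction of the ATG8 differences depended on which pools were kept. Without Col-0 replicate 3 all 7 lay above 0 with a median of 0.75. Of them 4 had an unadjusted p under 0.05, as had 2501 of the 13647 probe sets tested. None was called (ATG8E 1.38, limma adjusted p = 0.107), where 302 probe sets (2.21%) were. Without both arrays of culture 3 the median was 0.83 and ATG8E was called as higher (1.62, SE 0.38, limma adjusted p = 0.0406), the other 6 not (0.131 to 0.554), where 5.33% of probe sets were called. Without Col-0 replicate 2 the median was 0.092 and ATG8B, ATG8C and ATG8G turned below 0. Without sid2.2 replicate 2 the median was 0.27 and ATG8B turned. Without both arrays of culture 2 all 7 lay below 0, with a median of -0.11 (ATG8F at -0.0038, ATG8B at -0.36). Without the array pair that stood apart together, Col-0 replicate 3 and sid2.2 replicate 2, all 7 lay above 0, from 0.21 for ATG8C to 0.97 for ATG8E, and none was called (smallest limma adjusted p = 0.136; 3 with an unadjusted p under 0.05), where 1.72% of probe sets were.

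**Figure D4:**
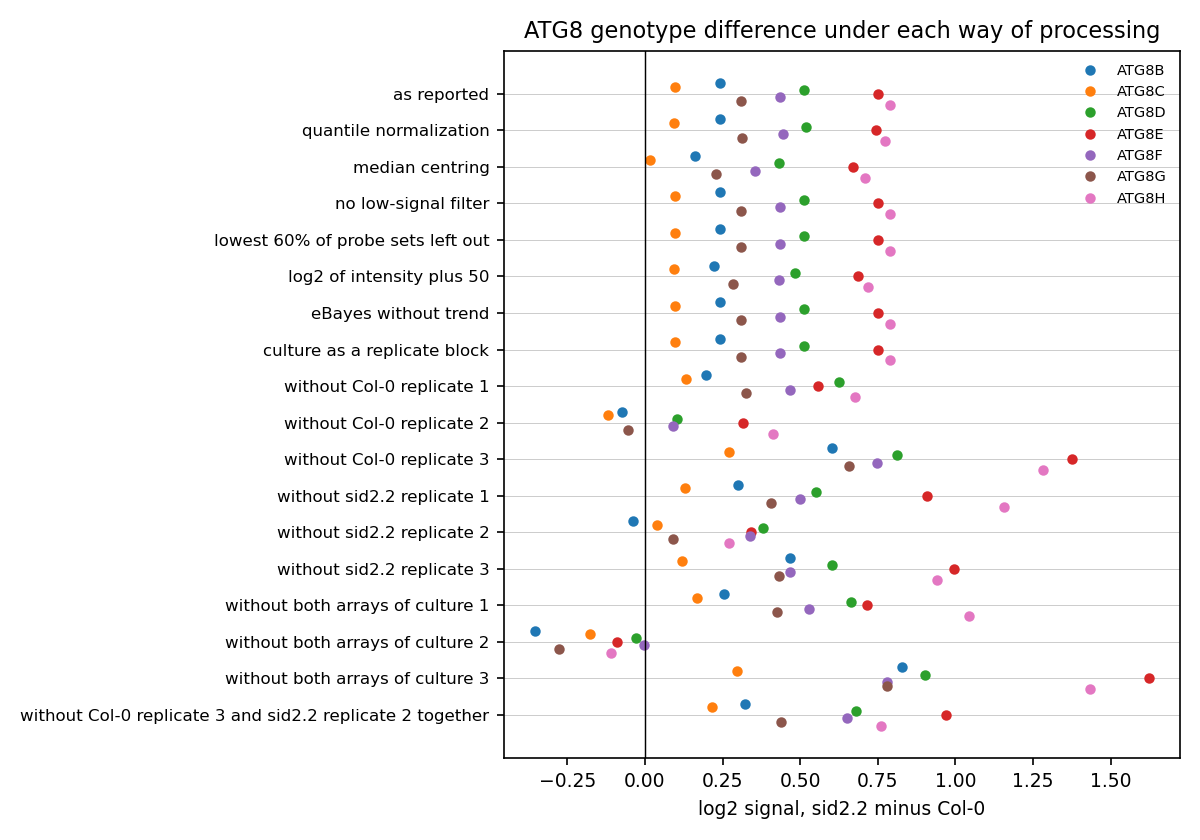
Log2 difference, sid2.2 minus Col-0, of each ATG8 gene (coloured points) under each way of processing, 1 line per setting. Scaling and the offset move the points little, while the filters, the trend and the culture block cannot move them. Leaving out Col-0 replicate 2 shifts them down, 3 of the 7 below 0, and leaving out culture 2 puts all 7 below 0. Leaving out Col-0 replicate 3 or culture 3 shifts them up, ATG8E to 1.62.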

How the data were processed

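Rosette RNA was measured on 6 arrays, each hybridised with target prepared from 200 ng of pooled total RNA. The values in the deposited table are linear intensities, 1 for every probe set and array. MAS5 produced them, per the submitters' processing notes, with a version not given in the sources used here. Array means without the highest and lowest 2% of values lay between 499.78 and 499.82, and no further scaling was applied. Precision is limited by the number of arrays, 3 for each genotype.

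Probe sets were named by the platform annotation, with symbols updated by gene identifier from RefSeq (TAIR10.1); 13513 had 1 name, 503 several and 8794 none. Intensities were log2 transformed. Controls and probe sets in the bottom 40% by mean log2 signal were dropped, leaving 13647, among them all 7 ATG8 sets. Genotypes were compared over all of them with limma 3.58.1 in R 4.3.3 (eBayes with trend, two-sided, Benjamini-Hochberg). The fit was afterwards also run on simulated data, with noise sized by the genotype comparison and drawn independently for each probe set and array. Such noise lacks the differences between arrays that many probe sets shared here. The p-values of the genotype comparison set the genotype difference against the spread between pools of a genotype, which includes differences between cultures.

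The members, lists and alternatives were chosen with earlier results of these data known; 4 of the 7 genes (ATG8D, ATG8E, ATG8F and ATG8H) had been named at the outset, and the rule gave 3 more. List genes without a symbol were taken by locus after the annotation was seen. Up to 4 genes per list were named by smallest p, with the 10 genes most like the ATG8 mean and the 5 most opposite. The culture number in the labels pairs the arrays; deviations of same-numbered arrays correlated at -0.03, -0.53 and -0.55, and those of sid2.2 replicate 2 and Col-0 replicate 3, from different cultures, at 0.66. Alternatives changed scaling, filter, offset (50), trend, block and the arrays kept. Protein and promoter sequences were not used here.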

Additional observations from a re-analysis of the deposited data

Results flagged for a closer look

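In culture 3 the sid2.2 minus Col-0 difference of every ATG8 gene was opposite in sign to that in culture 2. The culture 3 values (log2) were -0.93 for ATG8B, -0.31 for ATG8C, -0.27 for ATG8D and -0.999 for ATG8E, and -0.26 for ATG8F, -0.63 for ATG8G and -0.50 for ATG8H. The culture 2 values were 1.44 for ATG8B, 0.64 for ATG8C, 1.59 for ATG8D and 2.43 for ATG8E, and 1.31 for ATG8F, 1.48 for ATG8G and 2.59 for ATG8H. With 1 array per genotype and culture, the difference between cultures was not tested.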

How the results depend on the processing

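Among 17 alternatives, each ATG8 difference stayed above 0 under both further scalings and the offset of 50, with 0 of 7 called. Both other filters, eBayes without trend and culture as a replicate block cannot move the difference itself, only its error and p-values. Under these settings too, 0 of 7 were called. The block left the differences as they were, at 0.10 to 0.79, with a limma adjusted p of 0.998 for each, and changed no call of an ATG8 gene; 0 of the other autophagy genes were called in any of the 17. Without both arrays of culture 2 the direction turned for ATG8B (-0.36), ATG8C (-0.18), ATG8D (-0.028), ATG8E (-0.091), ATG8F (-0.0038), ATG8G (-0.28) and ATG8H (-0.11), and for their median (-0.11). Without both arrays of culture 3 ATG8E passed (1.62). With single arrays left out, the differences ran from -0.073 to 0.60 for ATG8B, -0.12 to 0.27 for ATG8C, 0.10 to 0.81 for ATG8D, 0.32 to 1.38 for ATG8E, 0.092 to 0.75 for ATG8F, -0.055 to 0.66 for ATG8G and 0.27 to 1.28 for ATG8H. The turned values were those without Col-0 replicate 2 for ATG8B (-0.073), ATG8C (-0.12) and ATG8G (-0.055), and without sid2.2 replicate 2 for ATG8B (-0.039). The array-wide count of 3 became 1 with quantile normalization or without trend, 5 with the offset, and 0 without a low-signal filter, with the lowest 60% left out or with the replicate block. With single arrays left out it ran from 0 to 302, and it was 0, 0 and 728 without culture 1, 2 and 3, and 235 with sid2.2 replicate 2 and Col-0 replicate 3 both left out. Causes were not tested.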
